A study of Mus musculus with 4 samples.

Results

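The transcripts of 9 genes that encode enzymes and partner proteins of RNA adenosine methylation (Wtap, Virma, Zc3h13, Cbll1, Rbm15, Rbm15b, Mettl14, Mettl16 and Pcif1) were followed in maps of N6-methyladenosine (m6A) from mouse hearts. They were chosen by gene name, and all 9 carried peaks, out of 12182 Ensembl genes with a peak in either genotype. Hearts came from Wtap-CKO mice, which carry a conditional knockout of Wtap, and from Wtapflox/flox mice, which carry the floxed alleles, all at 4 days of age. No label names the Cre line or the cells in which it acts. In MeRIP-seq, RNA fragments bound by an anti-m6A antibody (IP) are sequenced beside the unselected RNA (input). RNA of 8 Wtap-CKO mice and of 7 Wtapflox/flox mice was pooled, and each pool gave 1 IP and 1 input library. The authors' caller compared each IP with its own input and gave 1 peak list per genotype, called the knockout list and the control list here. With 1 pooled sample per genotype there is no replicate check, and no test between genotypes was made. Sequencing depth is unknown, because the lists give no read counts. Pooled whole hearts cannot tell fewer cells of a type from less RNA per cell, and a peak list cannot tell a change of methylation from a change of transcript level or of depth.

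Methylation of adenosine in mRNA is written in the nucleus by a core pair of proteins, the catalytic METTL3 and its RNA-binding partner METTL14, joined by a large regulatory part. WTAP holds the pair in nuclear speckles, VIRMA is a large scaffold that binds WTAP, ZC3H13 anchors the regulatory part in the nucleus, CBLL1 (HAKAI) is a RING-finger protein of the same assembly, and the paralogs RBM15 and RBM15B bind RNA and bring the complex to it. METTL16 works apart from this complex, on U6 snRNA and the Mat2a transcript, and PCIF1 methylates the adenosine beside the mRNA cap. Antibodies raised against m6A also bind this cap mark. m6A is best known near stop codons and in long internal exons of mRNA.

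The knockout list held 30 peaks of these genes and the control list 31, and every member had at least 1 peak in each list. Over all genes with a peak, 77.6% had peaks in both lists. Of the knockout peaks of the 9 genes, 5 of 30 (16.7%, exact 95% interval 5.64 to 34.7) overlapped no control peak by even 1 exonic base on the same strand, against 24.5% of all knockout peaks. Of the control peaks, 6 of 31 (19.4%, 7.45 to 37.5) overlapped no knockout peak, against 23.9% of all control peaks. Both shares were near those of the whole lists, whose values lie within these intervals. The intervals cover counting error only and treat peaks of 1 gene as independent.

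The peaks found in a single list were all narrower and of larger q than the median peak of their list. Those medians were 241 bases and log10 q -7.69 for the knockout list, and 270 bases and -9.17 for the control list. Peaks without a counterpart were also the weaker ones over all genes. Their median log10 q was -3.2 against -11.9 for shared peaks in the knockout list, and -3.73 against -13.3 in the control list. The single-list peaks of the 9 genes were 90 to 180 bases wide in the knockout list and 90 to 240 bases in the control list. Their log10 q lay between -4.97 and -1.80 in the knockout list and between -9.10 and -2.22 in the control list. The control peak of Mettl14, at 240 bases and -9.10, was close to the median of its list. Among strong peaks, meaning a q at or under 1e-10, 0 of 14 knockout peaks (which allows a share of up to 21.4%) and 0 of 18 control peaks (up to 16.7%) lacked a counterpart, where the whole lists had 4.04% and 8.72%. Summed over the 9 genes, knockout peaks covered 10884 exonic bases and control peaks 11380. The 8581 bases covered in both made up 78.8% of the knockout and 75.4% of the control total, beside 75.3% and 71.0% over all genes.

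**Figure D1:**
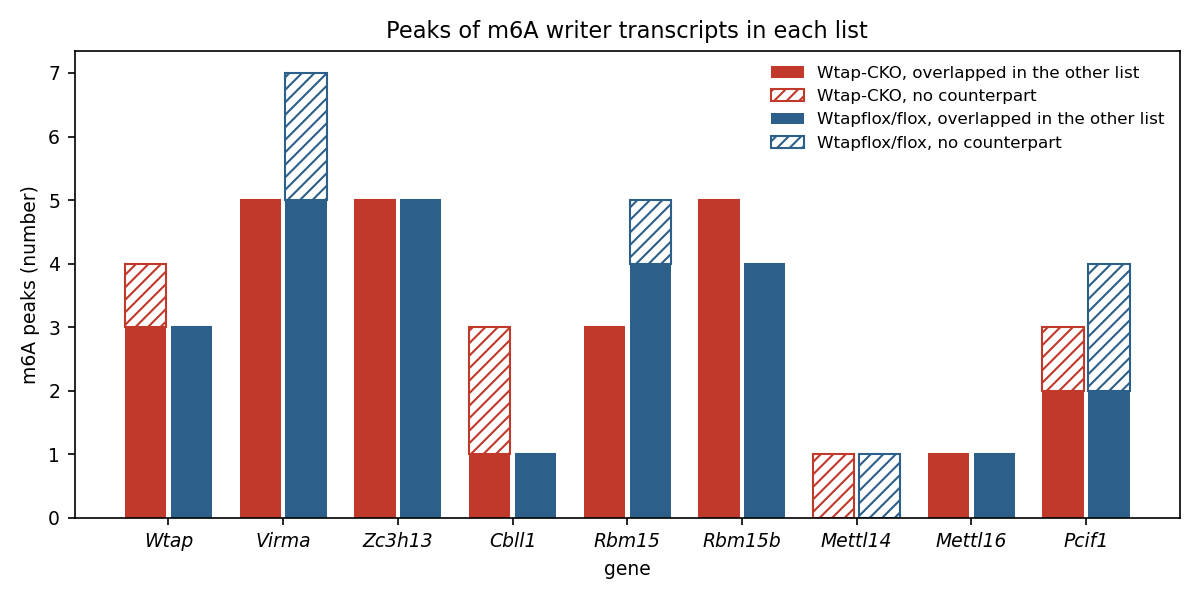
Number of m6A peaks (vertical axis) of each writer gene in the Wtap-CKO list (red, left bar) and the Wtapflox/flox list (blue, right bar), solid where the peak overlaps a peak of the other list and hatched where it does not. Virma has 5 and 7 peaks, Cbll1 3 and 1, and the single Mettl14 peak of each list has no counterpart.

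Wtap, the targeted gene (chromosome 17, minus strand), had 4 peaks in the knockout list and 3 in the control list, and all 3 control peaks had a counterpart. The strongest peak of both lists lay at the same place. It was 479 bases wide in the knockout list (13193479 to 13193957, log10 q -59.3), where its fold enrichment, the caller's ratio of IP over input, was 28.1. The control peak was 299 bases wide, lay wholly inside it (log10 q -99.5) and had a fold of 11.8. Such folds are the authors' own values within each list, so a difference between the lists is not a measured change.

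The 3′-most Wtap peak was 449 bases wide in the knockout list and lay wholly inside a control peak of 569 bases, of which it covered 78.9%. The knockout peak had a log10 q of -39.3 and a fold of 4.58, and the control peak a log10 q of -67.7 and a fold of 9.90. A further knockout peak of 151 bases (13194166 to 13194316, fold 3.13, log10 q -4.53) lay inside the larger block of a control peak of 226 and 14 bases (fold 6.82, log10 q -22.4). The 14-base block, which sits further 5′ in the gene, had no counterpart. The 5′-most knockout peak, at 13210995 to 13211114, was 120 bases wide and stood 11272 bases from the nearest control peak of the gene. It had a log10 q of -1.80, the weakest of all 30 knockout peaks here. Wtap transcripts thus carried called peaks at 3 matching places in Wtap-CKO and Wtapflox/flox hearts. The peaks do not check the deletion, since the lists give no transcript level and do not show which exon was removed.

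Virma (chromosome 4, plus strand) had 5 knockout and 7 control peaks. All 5 knockout peaks were matched and each lay wholly inside its control counterpart, so that 100% of the 965 bases covered in the knockout list were also covered in the control list. The reverse share was 57.2% of 1687 bases. The knockout peaks were 181, 121, 241, 211 and 211 bases wide from 5′ to 3′, and their counterparts 241, 241, 331, 271 and 331 bases. The knockout peaks were thus narrower in total exonic width at each of the 5 places. At the 5′-most place the blocks themselves were 181 bases in the knockout list and 185 in the control list, and the rest of that difference was a separate control block.

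In the knockout list these 5 peaks had folds of 2.81, 3.07, 4.60, 3.75 and 3.28, between percentiles 13.2 and 32.7 of that list. The 5 matched control peaks had folds of 5.98, 3.44, 7.0, 8.15 and 14.5, the lowest at percentile 19.8 and the highest at percentile 81.8 of the control list. None of the knockout peaks of Virma was strong (log10 q between -5.97 and -2.87), and 4 of its 7 control peaks were (smallest log10 q -29.3, at 11526423 to 11526907). The control list alone held a peak of 181 bases at 11527146 to 11527326 (log10 q -5.02), 298 bases from the nearest knockout peak, and one of 91 bases at 11550474 to 11550564 (log10 q -2.22), 23626 bases from it. Both are the 3′-most peaks of the gene. In the control list 2 Virma peaks had a second block, of 56 and 18 bases, that the knockout list did not hold.

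Comparisons for Virma over all genes were chosen after its values were seen. Among the 213 genes with peaks in both lists and at least 4 strong control peaks, 9 (4.23%) had no strong knockout peak, Virma among them. The share in the other direction is not given here. Strong peaks made up 43.2% of the whole knockout list and 48.0% of the whole control list. Of 132 genes with at least 5 peaks that overlapped 1-to-1 between the lists, 4.55% were narrower in the knockout list at every pair, Virma among them, and 1.52% were wider at every pair. Knockout bases lay wholly within control peaks in 23.9% of the genes with peaks in both lists, and control bases wholly within knockout peaks in 25.9%.

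Zc3h13 (chromosome 14, plus strand) had 5 peaks in each list, matched 1-to-1 along the gene. The peaks of the knockout list covered 2607 bases and those of the control list 2188, with 2009 bases in both, which is 77.1% and 91.8%. The widths were mixed rather than one-sided. Counted from the 5′ end, knockout peaks 1, 3 and 4 were wider, at 539, 629 and 569 bases against 300, 360 and 509 in the control list. Knockout peaks 2 and 5 were narrower, at 659 and 211 bases against 779 and 240. The first pair began at the same base, 75560666, in both lists. Folds were 14.5, 16.6, 5.84, 16.1 and 3.97 in the knockout list and 5.8, 11.6, 4.45, 12.7 and 2.35 in the control list. The knockout fold was thus the higher at each of the 5 pairs, which was not compared with other genes. Peak 5 had the lowest fold in both lists. Peaks 2 and 4 spanned several exonic blocks (3 and 2 in the knockout list, 4 and 2 in the control list) and had the smallest q of the gene, with a log10 q of -68.0 and -63.1 in the knockout list and -51.9 and -77.7 in the control list.

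Cbll1 (chromosome 12, minus strand) had 3 knockout peaks and 1 control peak. The shared peak was 390 bases wide in the knockout list (31537279 to 31537668, fold 4.69, log10 q -5.16). It lay inside a control peak of 539 bases (fold 13.9, log10 q -19.5). In both lists a peak of the gene Gm29542 on the other strand lay at this place, and these calls do not tell the genes apart. The other knockout peaks lay 5′ of it. One was 90 bases wide (log10 q -2.03) and stood 298 bases from the control peak. The other, at 31544633 to 31549555, joined blocks of 116 and 34 bases and had a fold of 18.8, at percentile 87.0 of the knockout list, but a log10 q of only -3.86.

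**Figure D2:**
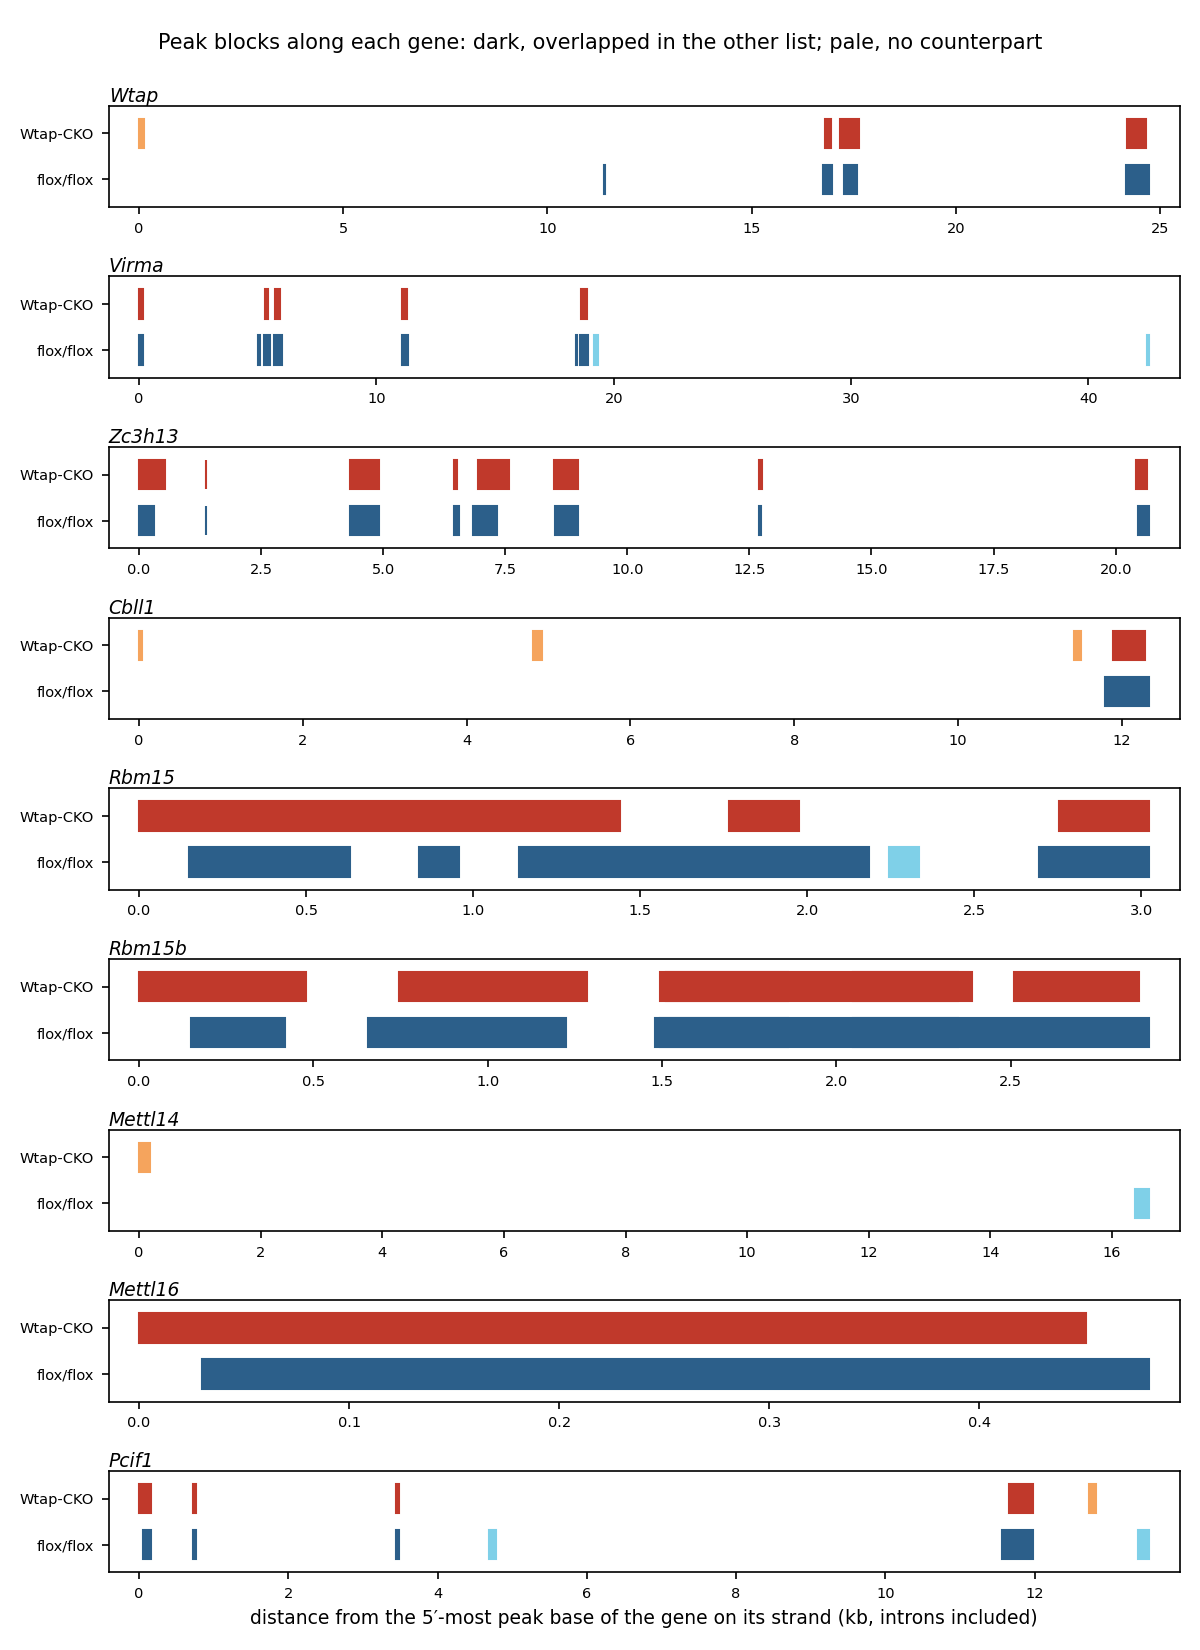
Exonic blocks of every peak along each gene, with the Wtap-CKO list above the Wtapflox/flox list and the distance in kb from the 5′-most peak base on the gene's strand on the horizontal axis, which has its own scale for each gene. Dark blocks belong to peaks that overlap a peak of the other list and pale blocks to peaks that do not; the narrowest blocks are drawn slightly wider by their outline. Each axis runs from the first to the last peak base of the gene, so the Mettl14 peaks stand at its ends by construction. These are not the ends of the transcript. The pale Virma blocks are the 3′-most of that gene, and one of them lies left of the middle of the axis.

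The paralogs Rbm15 and Rbm15b carried broad peaks that were cut differently in the lists. Rbm15 (chromosome 3, minus strand) had 3 knockout and 5 control peaks. A knockout peak of 1438 bases (107239163 to 107240600, fold 19.9, log10 q -42.7), wider than 99.1% of that list, overlapped 3 control peaks, of 480, 121 and 1049 bases. Their folds were 17.6, 14.4 and 9.62 and their log10 q -5.12, -3.04 and -11.7. The 1049-base control peak also held a second knockout peak, of 210 bases (fold 3.15). The 3′-most pair had the same 3′ edge, 107237577, and 5′ edges 59 bases apart, with folds of 4.44 in the knockout list and 8.94 in the control list. A control peak of 90 bases (log10 q -3.29) had no counterpart and lay 269 bases from the nearest knockout peak. In all, 1383 bases were covered in both lists, 72.1% of the knockout and 66.8% of the control bases.

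Rbm15b (chromosome 9, minus strand) had 5 knockout and 4 control peaks, all with a counterpart. All 5 of its knockout peaks were strong, and 3 of its 4 control peaks were. The remaining control peak, the 5′-most, had a log10 q of -9.72, just short of that threshold. Its 5′-most knockout peak, 479 bases wide, had a fold of 40.3, the highest of the 30 knockout peaks and at percentile 98.0 of the list, and its control counterpart of 270 bases had 15.2. The next pair was 539 bases wide in the knockout list (fold 16.1, log10 q -36.0) and 569 bases in the control list (fold 19.2, log10 q -54.7). The 3′-most knockout peak, of 359 bases, had a fold of 8.14 (log10 q -39.0). A control peak of 1404 bases (106761402 to 106762805, fold 14.7) covered the place of 3 knockout peaks. One of these, of 896 bases (106761910 to 106762805), itself overlapped another of the 3, which had 2 blocks (106761950 to 106762788), and the control list had the same kind of doubled call there. The doubled knockout calls had folds of 16.8 and 34.7 over largely the same bases, and the control calls 14.7 and 14.2. Such overlap between peaks of 1 gene occurred in 1.81% of all knockout and 1.87% of all control peaks. Together the lists shared 2004 bases, 88.2% of the knockout and 88.8% of the control bases.

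More than 1 counterpart was found for 3 of the 25 shared knockout peaks and 3 of the 25 shared control peaks of the 9 genes (12% each). All of them were in Rbm15 and Rbm15b. These counts are not of splits and merges alone, since each doubled call of Rbm15b overlaps both calls of the other list there. Over all shared peaks, 8.24% of knockout peaks overlapped more than 1 control peak, and 9.48% of control peaks more than 1 knockout peak.

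Mettl14 (chromosome 3, minus strand), which encodes the partner of the catalytic subunit, was the member whose peaks did not coincide. Its knockout peak was 180 bases wide at 123179428 to 123179607 (fold 5.94, log10 q -4.97), and its control peak was 240 bases wide at 123162993 to 123163232 (fold 4.93, log10 q -9.10). They lay 16195 bases apart, the knockout peak toward the 5′ end. Neither was strong, and both folds were below the median of their list (7.03 in the knockout list, 7.22 in the control list). The share of all genes with peaks in both lists and no overlap was not counted. The pattern is therefore not shown to be particular to Mettl14.

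Mettl16 (chromosome 11, plus strand) had 1 peak in each list, and these were nearly the same. Each was 451 bases wide and shifted by 30 bases against the other, at 74708052 to 74708502 in the knockout list and 74708082 to 74708532 in the control list, with 421 bases in both. The log10 q was -19.5 in the knockout and -21.8 in the control list, and the folds were 5.0 and 12.4. Pcif1 (chromosome 2, plus strand) had 3 knockout and 4 control peaks. A 5′ peak of 3 blocks was called in both lists, with 240 bases in the knockout list (fold 6.10, log10 q -4.91) and 180 in the control list (fold 2.95, log10 q -4.46). Its 3′ blocks, of 47 and 37 bases, had the same edges in both lists. The strongest Pcif1 peak ended at 164733237 in both lists and was 330 bases wide in the knockout list (fold 6.04, log10 q -21.9) and 419 bases in the control list (fold 5.04, log10 q -18.2). A weak knockout peak of 90 bases (log10 q -2.84), which overlapped a peak of Zfp335 on the other strand, and 2 weak control peaks of 91 and 151 bases (log10 q -2.34 and -2.90) had no counterpart.

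The step in which peak edges move is given first, as a scale for the widths. Among 9355 pairs of single-block peaks over all genes, 26.5% of edges coincided, and 96.7% of the other edges were shifted by a multiple of 30 bases, give or take 1. A shift of 30 bases, as in Mettl16, is thus 1 step. Of the 20 pairs of the 9 genes that overlapped 1-to-1, 13 (65.0%) were narrower in the knockout list, 6 (30%) wider and 1 of the same width, where all 13228 such pairs gave 43.8%, 42.2% and 14.0%. These counts took any difference in width, also those of about 1 step. Such were the narrower Zc3h13 knockout peak 5 (-29 bases) and Rbm15b knockout peak 2 (-30 bases). Among the wider pairs the smallest difference was 60 bases. The median difference, knockout minus control, was -59.5 bases for the 9 genes and 0 bases for all pairs. Of the 13 narrower pairs 5 were those of Virma. Their differences, from -60 to -120 bases, all lay below that median, and the median without Virma was not computed. The knockout peak lay wholly inside the control peak in 11 of the 20 pairs (45.5% over all pairs), 5 of them of Virma. The control peak lay inside the knockout peak in 6 (44.1%).

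**Figure D3:**
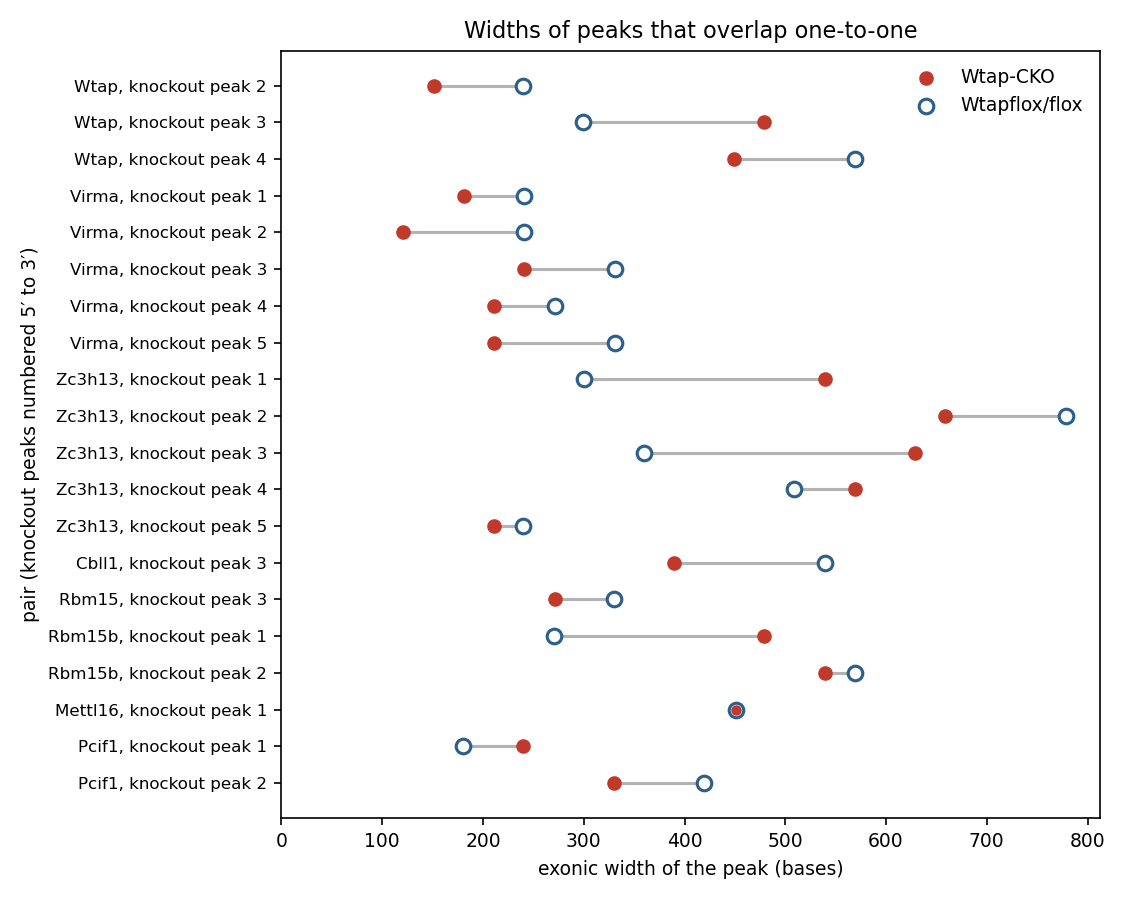
Exonic width in bases (horizontal axis) of the 20 pairs of peaks that overlap 1-to-1, with the Wtap-CKO peak in red and its Wtapflox/flox counterpart as an open blue circle, joined by a grey line. All 5 Virma pairs have the red point on the left, while the Zc3h13 pairs go both ways.

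Within the knockout list, the median fold of the writer peaks was 5.89 and their median width 300.5 bases, beside 7.03 and 241 bases for all knockout peaks. Writer peaks of the control list had a median fold of 8.15 and a median width of 300.0 bases, beside 7.22 and 270.0 bases for all control peaks. Strong peaks made up 46.7% of the writer peaks in the knockout list (43.2% over the list) and 58.1% in the control list (48.0%). The highest folds of the knockout list among these genes belonged to Rbm15b (40.3), Wtap (28.1) and Rbm15 (19.9). In the control list they belonged to Rbm15b (19.2), Rbm15 (17.6) and Virma (14.5). Rbm15b led in both, and Virma was the member whose highest fold was lowest in the knockout list (4.60). Peaks of more than 1 block were 5 of 30 in the knockout list (23.3% of all its peaks) and 7 of 31 in the control list (21.2%).

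**Figure D4:**
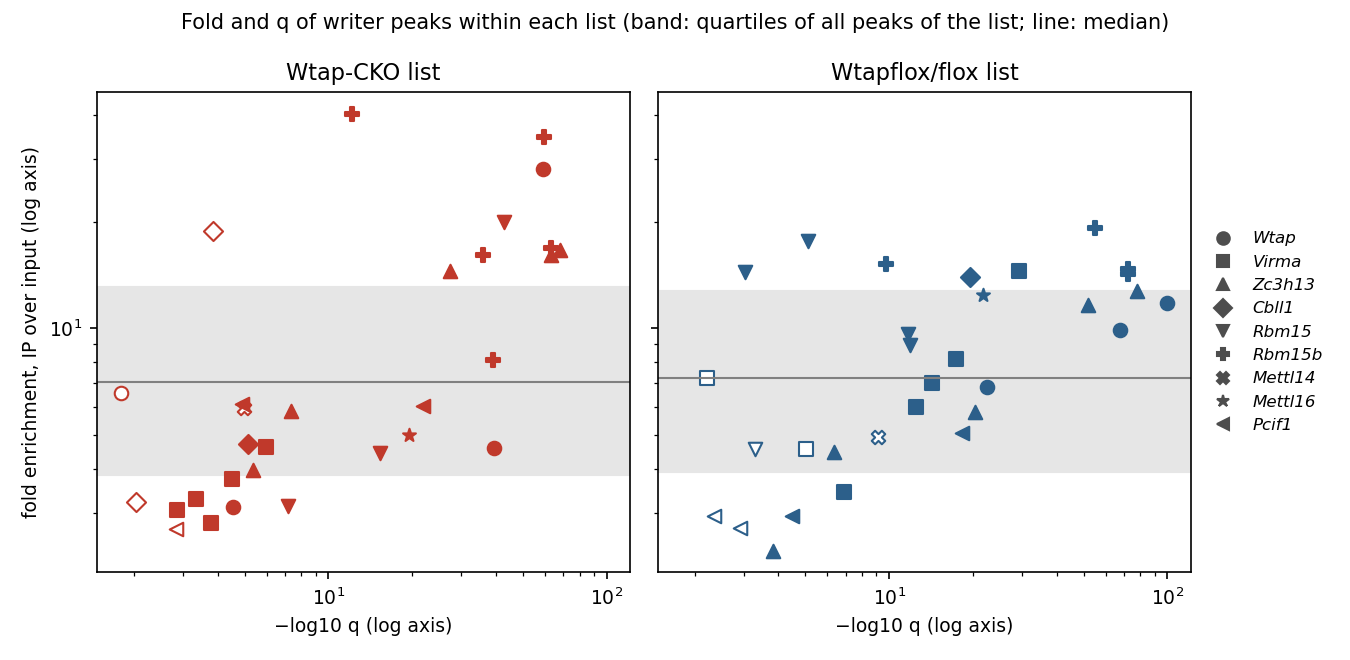
Fold enrichment of IP over input (vertical, log axis) against minus log10 q (horizontal, log axis) of every writer peak in the Wtap-CKO list (left) and the Wtapflox/flox list (right), with a marker shape per gene, filled where the peak has a counterpart and open where not. The grey band spans the quartiles and the line the median of all peaks of the list; the 5 Virma squares lie under the median line at left, and the open symbols sit toward small minus log10 q in both panels.

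The number of peaks per member ran from 1 to 5 in the knockout list and from 1 to 7 in the control list. At least 5 peaks were called in 4.45% of the genes with a knockout peak, with 3 of the 9 members (Virma, Zc3h13 and Rbm15b) among them. In the control list the share was 4.44%, with Virma, Zc3h13 and Rbm15. The genes most like a member were taken by 4 counts (knockout peaks, control peaks and those of each without a counterpart), with ties broken by the bases covered. For Virma, 3 other genes had the same 4 counts, namely Arhgef12, Gse1 and Ppp1r12b. For Zc3h13 there were 34, of which Zbtb7a, Chd6 and Prrc2a covered the most similar number of bases, and for Wtap there were 124, led by Dsel, Myl6 and Map1s.

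Of 25 other genes of the m6A pathway, 14 had peaks in both lists, 3 in the knockout list only, 4 in the control list only and 4 in neither. Mettl3, which encodes the catalytic subunit, had no peak in either list. Of the peaks of these 25 genes, 12 of 53 in the knockout list (22.6%) and 7 of 47 in the control list (14.9%) had no counterpart, beside the 24.5% and 23.9% of all peaks given above. The knockout-only genes were Mat2b, which encodes a regulatory subunit of S-adenosylmethionine synthetase (fold 4.22, log10 q -2.43), Trmt112, whose product is the cofactor of METTL5 (2.30, -4.57), and Elavl1, which encodes the RNA-binding protein HuR (21.6, -10.5). The control-only genes were Fto, which encodes a demethylase, Mettl5 and Zcchc4, which encode rRNA methyltransferases, and the reader gene Igf2bp3. Their log10 q values were -47.7, -1.72, -2.64 and -3.80, so the Fto peak was the strong one among them. Mettl4, a gene of another adenosine methyltransferase, resembled Mettl14 in having a knockout peak (log10 q -1.40) and a control peak (log10 q -3.84) that did not overlap.

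All 8 heart muscle markers (Myh6, Tnnt2, Tnni3, Actc1, Myl2, Myl7, Ryr2 and Nppa) had peaks in both lists, as did 5 of 5 fibroblast and 4 of 4 endothelial markers. Of the 4 blood and immune markers, Hba-a1, Ptprc and Cd68 had no peak. Hbb-bs, a haemoglobin gene with a near-identical copy that can share its reads, had 1 peak in each list, with a fold of 51.6 (log10 q -123) in the knockout list and 1.56 (log10 q -23.9) in the control list. In the knockout list, 1 of 20 peaks of the heart muscle markers had no counterpart, against 7 of 16 for fibroblast and 4 of 9 for endothelial markers, beside 24.5% of all knockout peaks. In the control list it was 4 of 24, 1 of 10 and 1 of 7, beside 23.9% of all control peaks. The 4 heart muscle peaks were all of 1 gene, Ryr2. Whether the make-up of the hearts has a part in the peaks of the writer genes was not tested.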

How the data were processed

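RNA of Wtap-CKO and Wtapflox/flox hearts (300 µg per pool) was cut to about 100 nt, incubated with the antibody for 2 h and sequenced with paired reads of 150 bases, per the labels' protocols. Genotype and antibody labels give the groups; sample titles abbreviate the knockout as WBKO. Per the series' design text, the authors called peaks with exomePeak 2.16.0 at a q threshold of 0.05. HOMER 4.9.1, BWA 0.7.12, fastp 0.19.11 and build GRCm39 appear, with no role, per the submitters' processing notes. Positions are the deposited ones with the 0-based starts made 1-based, and are taken to be of GRCm39. The deposited score column is a p-value per peak by the authors' caller. The deposited log10 p and log10 q were treated as a score, since some reach minus infinity. The deposited fold enrichment is a ratio of IP over input per peak.

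Overlaps were computed in Python 3.11.15 (pandas 2.3.3, scipy 1.17.1, numpy 2.4.6, matplotlib 3.10.9), by code tested on simulated peaks of known overlap. The simulated peaks were shifted by a few bases or moved to another sequence, so larger shifts, splits, merges and near misses were not covered. The simulation also left out peaks that overlap others of their list, so doubled calls were not covered by it. A peak was shared when at least 1 exonic base overlapped on the same strand. Intervals are exact (Clopper-Pearson, 95%), and the limit for a count of 0 is 3 counts of the total. A strong peak has a q at or under 1e-10. All 9 members were named, with pathway genes called in 1 list only or whose strongest peak had no counterpart, and Mettl3. The members, the lists and the strong threshold were chosen with earlier results of these data known. Alternatives changed the q, the fold, the overlap, strand, merging and list length. Peak sequences, the m6A motif and transcript regions were not analysed here, because no genome of this build was used.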

Additional observations from a re-analysis of the deposited data

How the results depend on the processing

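The number of control peaks of writer genes without a counterpart was 6 and lay between 4 and 9 under the 12 alternatives, each within 1.5 times as a count. As a share of the control peaks kept it was highest at a fold of at least 4, with 8 of 26 (30.8%, beside 31.6% of all control peaks), against 19.4% (23.9%) as reported. For knockout peaks it was 5 and stayed within 1.5 times under 10 alternatives. It was 2 of 26 (7.69%, beside 22.2% of all knockout peaks) when peaks in both lists needed a q at or under 0.001, and 8 of 30 (26.7%, beside 39.7%) when the overlap had to reach 50% of both peaks, against 16.7% (24.5%) as reported. The number of peaks per list lay between 21 and 30 for the knockout and between 26 and 31 for the control, and all 9 genes had peaks in both lists at a q at or under 0.001. No paired analysis was possible because each genotype had 1 IP and 1 input library, and for the same reason no replicate could be left out. Folds, widths and q values come from lists called separately at unknown depth, so genotype and library cannot be told apart.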
